A study of Mus musculus with 44 samples.

Results

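Saline-treated mouse skin differed widely from animal to animal in its RNA of hair keratins. The 10 mice given saline were compared with each other along that difference. Hair growth itself was not measured here. The mice were ranked by a hair score, the mean of log2(normalized count + 1) over Krt25, Krt27, Krt71 and Krt72, which are keratins of the inner root sheath, the sleeve that moulds the growing hair. The 4 saline mice with the highest score (mice 1, 10, 7 and 3) and the 4 with the lowest (mice 8, 9, 6 and 2) were compared, 8 of 44 mice in the series. Mice 4 and 5 lay between the sets. Both sets were chosen by values measured in the same mice, so the differences between them are a description and carry no test, and the 4 keratins of the score are left out of the results. The 34 mice given bleomycin took no part in the choice, and the tests were made in them. These mice were under bleomycin or recovering from it, and the share of injury or recovery in those results was not tested.

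All 44 mice were wild-type C57Bl/6 females, 8 weeks old at the start, and RNA was taken from a piece of back skin. The groups were 10 saline mice, 10 mice given bleomycin for 2 weeks and 10 given it for 4 weeks. A further 6 and 8 mice were given it for 4 weeks and taken after 6 and 10 weeks of recovery without it. Bleomycin, an antibiotic that causes skin fibrosis, was injected daily under the back skin (100 µL at 1 U/mL). The labels do not give the day on which each saline mouse was taken, so age at harvest was not compared with the score. Each animal is a separate sample, and all libraries were made from whole skin, in which fewer cells of a type and less RNA per cell cannot be told apart.

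Hair follicles pass through a cycle of growth (anagen), regression (catagen) and rest (telogen). In the growing follicle, dividing matrix cells around the dermal papilla give rise to the inner root sheath and the hair shaft, and melanocytes hand pigment to the shaft cells. The shaft is built of hair keratins embedded in keratin-associated proteins (KAPs), small proteins rich in cysteine, or in glycine and tyrosine, that are encoded by gene clusters. In mouse back skin neighbouring follicles cycle together, so a biopsy can hold follicles that are mostly at 1 stage.

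The hair score was 14.97, 13.67, 13.59 and 13.48 on the log2 scale in the high-score mice 1, 10, 7 and 3, 12.69 and 12.27 in mice 4 and 5, and 11.70, 11.15, 8.31 and 8.08 in the low-score mice 8, 9, 6 and 2. This order of mice is kept for all values below. The set limits fell between 12.27 and 11.70 and between 13.48 and 12.69, so the low set held a pair of mice close to the middle and a pair far below it. Scores were 1.30 to 7.91 after 2 weeks of bleomycin (median 1.86), 1.73 to 9.60 after 4 weeks (median 2.80), 2.73 to 14.10 after 6 weeks of recovery (median 10.76) and 7.42 to 14.94 after 10 weeks (median 13.92). The saline median was 12.48.

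**Figure D1:**
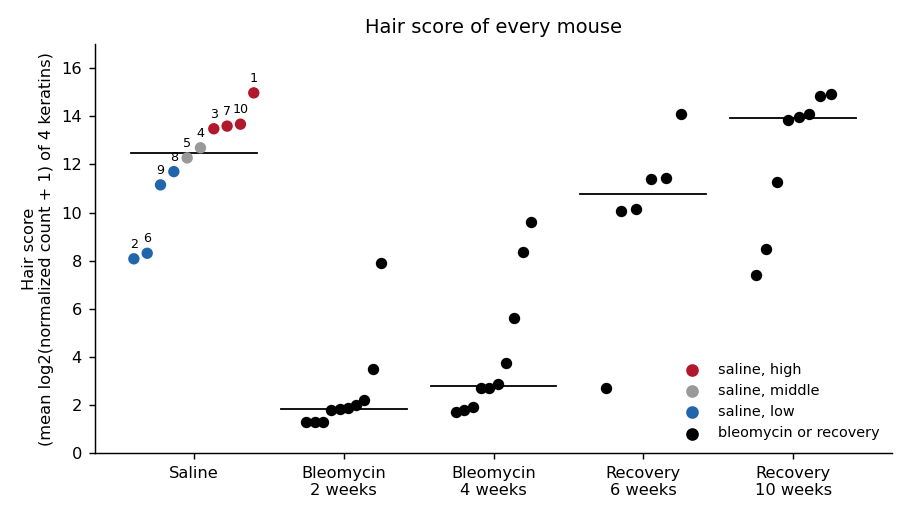
Hair score of each of the 44 mice (mean log2(normalized count + 1) of the 4 keratins of the rule), by group, with a line at the group median and saline mice numbered and coloured by set. The saline mice spanned 8.08 to 14.97, and most mice under bleomycin lay below 4.

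Reads on genes were 8641894 to 12016214 per saline mouse. Mitochondrial transcripts took 2.69% to 4.25% of them. Root sheath and shaft keratins and KAPs, without the 4 keratins of the score, took 2.405%, 1.16%, 0.941% and 0.789% of reads in the high-score mice, 0.341% and 0.171% in the middle, and 0.274%, 0.185%, 0.0263% and 0.0212% in the low-score mice. Mice 8 and 9 lay above mouse 5 in this share. Saline mouse 1 stood apart over all genes, with a median correlation of 0.942 with the other saline mice, against 0.949 for mouse 6, 0.961 for mouse 2 and 0.973 to 0.977 for the rest. Counts are therefore also given without mouse 1.

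Of 16862 genes with a mean above 3 in saline skin, 346 were higher in the high-score mice and 37 lower, counting a gene where the sets did not overlap and the means differed by at least 1 on the log2 scale (2.05% and 0.219% of genes). Without mouse 1 the counts were 334 and 41. The median difference over all genes was -0.01. With no limit on size, 842 genes (4.99%) lay higher without overlap and 474 (2.81%) lower. In the mice not used by the rule, the slope of each gene on the hair score, within groups, was tested with limma. Over the 34 mice 405 of 17071 genes rose with the score and 33 fell (2.37% and 0.193%, Benjamini-Hochberg adjusted p below 0.05). Over the 14 recovery mice alone, 1204 of 16862 rose and 834 fell (7.14% and 4.95%).

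The genes of the hair itself were the most different. Of 56 KAP genes above the filter, 49 were higher in all high-score mice than in all low-score mice, with a median difference of 4.78 on the log2 scale. All 56 rose with the score in the 34 other mice, and 55 of 56 did in recovery alone (1 did not pass). Of 14 shaft keratins 13 were apart (median 4.90), and 14 of 14 rose in the other mice. The 6 other root sheath and companion layer genes were all apart (median 3.75) and all rose, and of 6 other hair proteins 5 were apart (median 4.11) and 5 rose. Without mouse 1 the numbers of apart genes in these 4 lists did not move, and the medians were 4.33, 4.61, 3.29 and 3.64.

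Because the KAP genes differed together, the DNA just before some of their start sites is shown. RefSeq promoters (GRCm38.p6) were found for 51 of 57 KAP genes. The letters TATAAA, the core of the TATA box where the basal transcription machinery can bind, stood on either strand within 250 bases upstream in 41 of 51, or 80.4%, against 12.4% of all 32851 promoters. All 41 held it on the strand of the gene within the last 100 bases, where 3.80% of all promoters did, at a median of 31 bases before the start site. Of 8 promoters of shaft keratins 6 held it within 250 bases on either strand, and of 13 promoters of pigment genes 2 did (15.4%). Such a match is a description of letters, not of binding. The 100 bases upstream of 3 of the KAP genes with the highest level follow, with TATAAA in capitals. The stretch of Krtap8-1 lies at chr16:89487953-89488052 and that of Krtap1-5 at chr11:99581017-99581116, both on the minus strand. The stretch of Krtap15 lies at chr16:88828909-88829008 on the plus strand, inside the longer gene model given below. TATAAA is not found in it, but the similar letters tataag are.
Krtap8-1: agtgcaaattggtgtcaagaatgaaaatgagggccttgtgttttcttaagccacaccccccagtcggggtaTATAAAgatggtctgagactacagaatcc
Krtap1-5: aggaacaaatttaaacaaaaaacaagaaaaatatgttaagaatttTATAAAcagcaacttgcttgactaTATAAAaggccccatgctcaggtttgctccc
Krtap15: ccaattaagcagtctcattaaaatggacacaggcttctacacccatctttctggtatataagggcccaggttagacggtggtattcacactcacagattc

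Krtap8-1, a glycine-tyrosine-rich KAP (ENSMUSG00000059632.3, GRCm38 chr16:89487379-89487952), had 21540, 8317, 6405 and 5266 normalized counts in the high-score mice, 2048 and 911 in the middle, and 1617, 1247, 18.2 and 86.8 in the low-score mice. The sets did not overlap, and mean counts were 10382.2 ± 7544.5 against 742.4 ± 811.3 (SD, n = 4 each), a difference of 5.19 ± 1.61 (SE) in mean log2. Mice 6 and 2 lay far below mice 8 and 9, which reached or passed mouse 5 of the middle. In the 34 other mice its slope was 0.90 ± 0.05 (SE, adjusted p = 6.84e-16), in log2 units per unit of the score. Krtap15 had 10616, 5053, 5159 and 3984 counts in the high-score mice and 318, 870, 0 and 17.1 in the low-score mice, the largest difference among KAP genes (6.93 ± 2.22). Its model spans chr16:88820215-88829844 and overlaps 4930553J12Rik on the same strand and Krtap14 on the other strand. The strand setting of the counting is not given in the sources used here, so reads of these genes may have been mixed.

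The KAP genes sit in clusters, and the difference ran through each of them. On chr16, between 88610705 and 89571183, 22 of 24 KAP genes above the filter were apart, with a median difference of 5.12. On chr11, between 99550130 and 99993994, 18 of 23 were apart (median 4.38). The smaller groups on chr7, chr10 and chr1 had 5 of 5, 2 of 2 and 2 of 2 apart. By family, KAP19 had a median difference of 6.28 over 7 genes and KAP4 of 4.38 over 8 genes, while the only KAP20 gene above the filter had 1.48. KAP genes are close copies of each other, so reads may have been shared among neighbours and the single values are uncertain.

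Krt81, a keratin of the shaft cortex (chr15:101459061-101463751), had 9947, 6249, 4850 and 3361 counts in the high-score mice, 1172 in mouse 4, and 1005, 728, 15.8 and 58.2 in the low-score mice, with mouse 5 below mice 8 and 9. The 4 mice of the high set were all at least 3 times above mouse 8, the highest of the low set, and the difference was 5.10 ± 1.47. Krt33a, its acidic partner type, gave 5.18 ± 1.34, and both rose in the other mice (slopes 0.99 and 0.86, adjusted p = 7.27e-20 and 4.21e-14). Krt84 was the shaft keratin whose sets overlapped (314 at the lowest in the high set, 982 at the highest in the low set). It was named after its values were seen. Krt73, of the root sheath cuticle, had 11691, 3216, 2714 and 3312 counts against 657, 530, 373 and 76.5 (3.76 ± 0.85). Krt75, which marks the companion layer next to the sheath, differed least in this list, by 1.79 ± 0.49. Mouse 1 was the highest saline mouse for Krt81, Krt33a, Krt73 and Krt75.

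S100a3, a calcium-binding protein of the hair cuticle, had 14853, 3915, 2585 and 2805 counts in the high-score mice, 2088 and 1344 in the middle, and 506, 506, 108 and 100 in the low-score mice. Its model overlaps S100a2 on the same strand. Padi3, the enzyme that converts arginines of hair proteins to citrulline, had 5139, 2096, 1627 and 1642 counts against 688, 324, 66.7 and 34.3 (3.93 ± 1.06), and its slope in recovery mice was 0.92 ± 0.02 (adjusted p = 1.97e-15). Lrrc15 was closer between the sets (2.37 ± 0.86), and Mt4, a metallothionein of stratified epithelium, was the exception of this list: its sets overlapped, and mouse 2 had 845 counts against 751 in mouse 3.

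**Figure D2:**
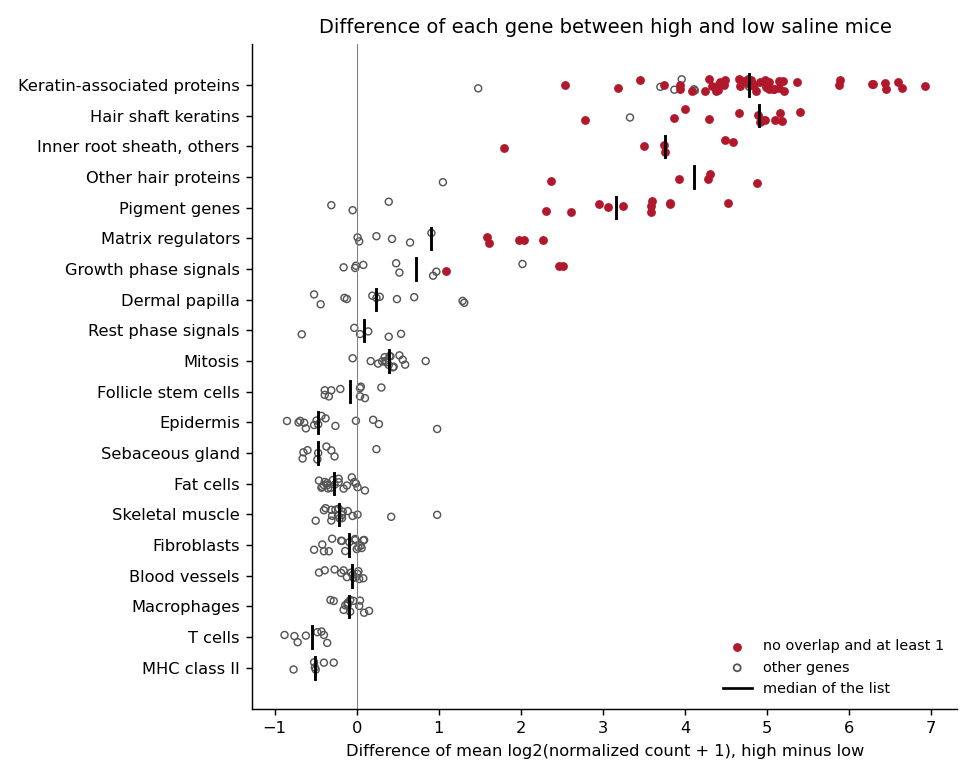
Difference between high-score and low-score saline mice (mean log2(normalized count + 1), high minus low) for each gene of 20 lists. Filled points are genes whose sets did not overlap with a difference of at least 1, open points are the other genes, and bars are list medians. The 4 hair lists had medians between 3.75 and 4.90, pigment genes 3.16, and lists of other skin cells lay near 0 or just below it.

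Regulators of the matrix were split. Of 11 such genes, 5 were apart (Dlx3, Foxn1, Hoxc13, Msx1 and Msx2), 8 did not overlap at any size, 7 rose in the 34 other mice and 9 in recovery. Hoxc13, the homeobox factor that acts on hair keratin genes, had 1653, 617, 413 and 447 counts in the high-score mice, 363 and 316 in the middle, and 300, 166, 161 and 81.1 in the low-score mice. The sets did not overlap and differed by 2.04 ± 0.60, less than the keratins did. Foxn1, the factor mutated in nude mice, had 980, 461, 390 and 331 counts against 170, 198, 130 and 160, and Msx2 had 1701, 483, 336 and 408 against 166, 135, 193 and 46.8. Their slopes in recovery mice were 0.27, 0.21 and 0.32 for Hoxc13, Foxn1 and Msx2 (adjusted p = 0.00312, 0.00266 and 0.00194). Hr and Gata3 differed by 0.01 ± 0.26 and 0.03 ± 0.13, and neither slope passed the test (adjusted p = 0.477 and 0.682 in the 34 mice).

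Signals of the growing follicle differed less as a list than the hair proteins, with 3 of 12 apart (Lef1, Fgf5 and Wnt10b, 2 without mouse 1) and 3 of 12 rising in the 34 mice (Lef1, Shh and Ptch1). Lef1, the partner of β-catenin in the matrix, had 1102, 296, 206 and 325 counts in the high-score mice, 234 and 181 in the middle, and 68.8, 80.1, 139 and 28.5 in the low-score mice. Every high-score mouse lay above every low-score mouse, with mouse 6 the highest of the low set, and the difference was 2.47 ± 0.70. Fgf5, the signal that ends hair growth, had 106, 37.5, 47.7 and 35.5 counts against 16.0, 14.9, 4.85 and 3.43 (2.51 ± 0.61). It rose with the score in recovery mice (0.45 ± 0.09, adjusted p = 0.00465) and did not pass over all 34 (adjusted p = 0.117). Axin2, Fgf7, Wnt10a and Vegfa lay between -0.16 and 0.08, and none of the 4 passed in either set of mice.

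Shh, the ligand made by matrix cells that drives growth of the follicle, did not separate the sets in saline skin. It had 186, 42.2, 28.3 and 68.7 counts in the high-score mice, 37.6 and 38.6 in the middle, and 6.88, 12.6, 84.9 and 5.71 in the low-score mice. Mouse 6 had the second highest count of all saline mice, above mice 10, 7 and 3, while mice 8, 9 and 2 were the 3 lowest. The difference was 2.02 ± 1.02, and without mouse 6 the low set would have ended at 12.6. The hedgehog targets gave the same order of mice at the top: Ptch1, the receptor, had 1194 counts in mouse 1, 1012 in mouse 6 and 382 to 857 in the others, and Gli1 had 823 and 739 counts in mice 1 and 6. In the mice not used by the rule Shh rose with the score (0.29 ± 0.07, adjusted p = 0.0178).

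The low-score mice were therefore not alike. Mouse 6 ranked the ninth of 10 by score and the tenth by KAP level, with a mean log2 level of 1.56 over the KAP genes against 2.90 in mouse 2, but the second of 10 for mitosis genes (8.33, against 7.58 in mouse 2, 7.19 in mouse 8 and 7.42 in mouse 9) and the second for DNA replication genes (9.07). Mice 8 and 9 had KAP levels of 6.65 and 6.41, above mouse 5 of the middle (5.53), while they were the lowest of 10 and next to lowest for mitosis and ranked the ninth and the eighth for growth signals. Mouse 2 was the lowest of 10 in score, matrix regulators, growth signals and DNA replication genes. A low score thus went with low RNA levels of the hair protein genes in mice 6 and 2. Mice 8 and 9 lay among the middle mice for KAP genes. In mouse 6 the low score did not go with low division genes or Shh. The sets are called by their score for that reason.

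**Figure D3:**
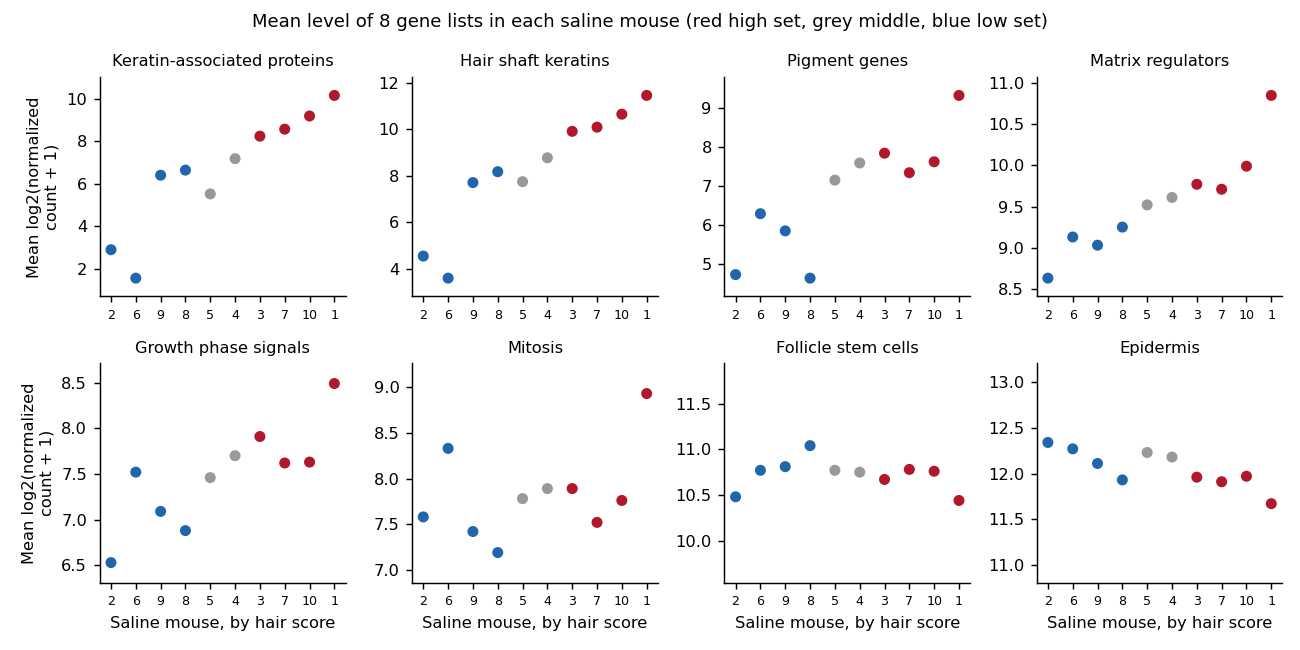
Mean log2(normalized count + 1) of 8 gene lists in each saline mouse, with mice ordered by hair score from the lowest at the left and coloured by set. KAP genes and shaft keratins climbed with the score, mouse 6 stood high for mitosis (8.33) and low for KAP genes (1.56), and stem cell and epidermis lists stayed within about 1 unit.

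Pigment genes formed the other large difference. Of 14, 11 were apart (median 3.16, and 11 with a median of 2.69 without mouse 1), and 10 rose in the 34 other mice and in recovery. Tyr, the enzyme that makes melanin, had 756, 179, 144 and 239 counts in the high-score mice, 201 and 116 in the middle, and 12.6, 34.3, 54.6 and 3.43 in the low-score mice. The sets were well separated (3.82 ± 0.97), and the middle mice lay near the high set. Dct, a further enzyme of the pathway that melanocyte precursors also make, had 4139, 993, 734 and 1252 counts against 204, 341, 610 and 144 (2.31 ± 0.71). Pmel, the fibre protein of the melanosome, differed by 3.25 ± 0.78. Slopes in the 34 mice were 0.30, 0.13 and 0.20 for Tyr, Dct and Pmel (adjusted p = 9.76e-05, 0.00919 and 0.00118). The members not apart were Mitf, the melanocyte master regulator (0.39 ± 0.17), Rab38 (-0.05 ± 0.16) and Rab27a, which moves melanosomes and also serves other cells. Rab27a lay the other way, lower in every high-score mouse by 0.31 on the log2 scale.

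Within the low set pigment and shaft levels were ordered differently. Mouse 8 had the lowest pigment level of 10 (4.63) with the highest shaft keratin level of its set (8.18). Mouse 6 had the highest pigment level of its set (6.28) with the lowest shaft keratin level of all (3.59).

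**Figure D4:**
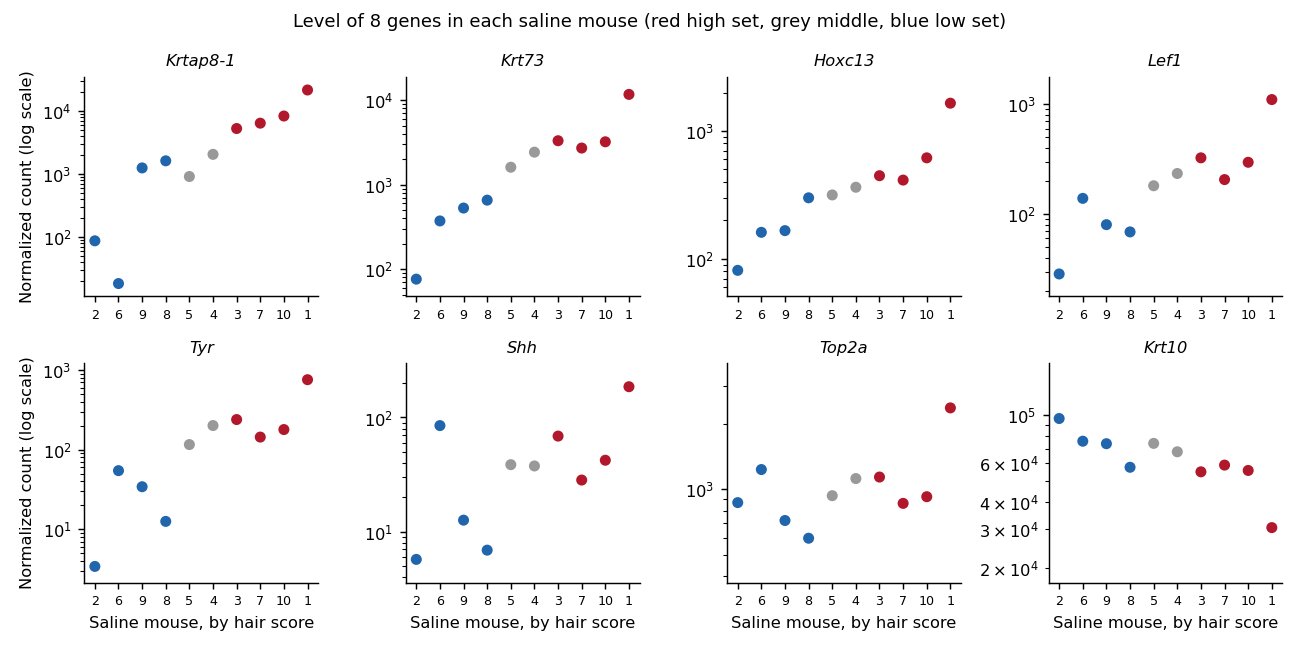
Normalized counts of 8 genes in each saline mouse on log axes, mice ordered by hair score from the lowest at the left and coloured by set. Shh in mouse 6 (84.9) exceeded 3 of the 4 high-score mice, and Top2a in mouse 6 (1234) exceeded the same 3.

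Division genes did not separate the sets in saline skin. None of 16 mitosis genes and none of 12 replication genes was apart, with medians of 0.39 and 0.25 (0.10 and 0.03 without mouse 1). Top2a, which untangles DNA in dividing cells, had 2368, 926, 863 and 1140 counts in the high-score mice, 1122 and 936 in the middle, and 597, 720, 1234 and 870 in the low-score mice. Mouse 1 was far above any other mouse and mouse 6 was the next. In recovery mice 13 of 16 mitosis genes and 6 of 12 replication genes rose with the score (7.14% of all genes did). Over all 34 mice 0 and 2 of them rose. Top2a had a slope of 0.09 ± 0.02 in recovery mice (adjusted p = 0.0068).

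Follicle parts outside the hair-making compartment differed little as lists. None of 10 stem cell genes, 11 dermal papilla genes and 6 rest phase signals was apart, and the medians were -0.08, 0.24 and 0.09. Single genes ranged from -0.39 to 0.30, from -0.52 to 1.31 and from -0.67 to 0.54 in these lists. Krt15, of the bulge, had 14640, 18562, 22546 and 18009 counts against 27330, 24869, 22141 and 21687, sets that overlapped at mice 7, 6 and 2. Of the papilla genes, Corin rose in the 34 mice (0.21, adjusted p = 0.0266), and Crabp1 fell in recovery mice (-0.08 ± 0.02, adjusted p = 0.00905), and the sets of both overlapped in saline skin. Sfrp1, an inhibitor of Wnt signals, was the rest phase gene whose sets did not overlap: it was higher by 0.54 ± 0.21 in the high-score mice, and it rose in recovery mice (0.08 ± 0.02, adjusted p = 0.0063). Bmp4 differed by 0.14 ± 0.20 and Fgf18, a signal of the resting bulge, by -0.67 ± 0.60. Fgf18 was at 19.1 in mouse 1 and 74.2 to 140 in the others, and it fell with the score in recovery mice (-0.10 ± 0.03, adjusted p = 0.0251).

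Epidermal genes leaned the other way without reaching a difference of 1. Of 15, 4 lay lower in all high-score mice (Krt1, Krt14, Krtdap and Sbsn), with a list median of -0.47 (-0.31 without mouse 1). Over all genes 2.81% lay lower without overlap. Krt10, the keratin of the upper epidermis, had 30515, 55613, 58824 and 54821 counts in the high-score mice, 67653 and 73903 in the middle, and 57498, 73654, 75606 and 95960 in the low-score mice. Mouse 2, with the lowest score, was the highest, and the sets overlapped at mice 7 and 8 (-0.62 ± 0.27). None of the 15 fell in either set of other mice, where 0 and 2 rose, so no test bore out this lean there. Normalized counts are relative to the rest of each library, and no absolute amount per area of skin can be read from them.

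Several immune lists leaned lower as well, by less than 1 and in part through mouse 1. MHC class II genes had a median of -0.50 with 3 of 6 lower without overlap, and 4 of 6 fell in recovery mice. T cell genes had a median of -0.55 with 1 of 8 lower without overlap (Cd3g). Over all genes 2.81% lay lower without overlap in saline skin, and 4.95% fell in recovery mice. H2-Aa, an MHC class II chain, had 5371, 9155, 8505 and 9131 counts against 9393, 11700, 12378 and 11564 (-0.51 ± 0.20), and a slope of -0.05 ± 0.01 in recovery mice (adjusted p = 0.0111). The gap between mice 10 and 8 was small. Of 8 mast cell genes, Mcpt4 and Cma1 were lower without overlap and Kit, which melanocytes also carry, was higher. Neutrophil genes leaned lower in saline skin, with a median of -0.32 (-0.29 without mouse 1), but 2 of 5 tested rose in recovery mice. S100a9 was apart lower at few counts (2.58 to 10.7 against 11.4 to 33.9) but rose with the score in recovery mice (0.14, adjusted p = 0.0304), as did S100a8 (0.19, adjusted p = 0.0243), which was 0.67 ± 0.51 higher in saline skin. None of the macrophage, B cell and interferon genes was apart or free of overlap, and their medians were -0.09, -0.47 and 0.13. Without mouse 1 the medians were -0.30 for MHC class II, -0.37 for T cells, 0.11 for macrophages, -0.39 for B cells and 0.32 for interferon genes.

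Among supporting tissues no gene was apart. Without overlap, 2 of 9 sebaceous gland genes lay lower (2.81% of all genes did). So did 1 of 20 fat cell, 1 of 17 fibroblast and 1 of 14 vessel genes. In smooth muscle 1 of 7 lay higher (4.99% of all genes did). Without mouse 1, 3 of 9 sebaceous gland genes lay lower, against 814 of all 16862 genes. Medians were -0.28 for fat cells, -0.21 for skeletal muscle, -0.47 for the sebaceous gland, -0.09 for fibroblasts, -0.06 for blood vessels, -0.17 for lymphatics, 0.02 for smooth muscle and -0.13 for Schwann cells. Without mouse 1 they were 0.02, 0.18, -0.28, 0.16, 0.15, 0.10, 0.18 and 0.10, so that 6 of these signs rested on mouse 1, the lowest of 10 for muscle (11.39 against 11.95 to 12.90), fat and vessels. Adipoq, the fat cell hormone, had 1060, 2037, 2458 and 1827 counts against 2387, 2359, 2434 and 2508. In recovery mice 13 of 18 muscle genes, 5 of 8 Schwann cell, 3 of 7 smooth muscle, 3 of 14 vessel, 1 of 5 lymphatic and 2 of 20 fat cell genes fell with the score (4.95% of all genes did), and none of these lists had a gene that rose. Skeletal muscle genes reached high levels in every mouse (Acta1 25163 to 79598 counts), so the pieces held muscle beneath the skin. Its share in the differences of other genes was not tested.

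Keratins of stressed cells (median 0.24), red blood cell genes (0.16), heat shock and early response genes (-0.03) and clock genes (-0.17) had no gene apart. Without mouse 1 these medians were 0.05, 0.36, -0.01 and -0.02. Krt6a, made in the companion layer and in wounded epidermis, had 9166 counts in mouse 8 and 1522 to 5766 in the others. All 5 genes of the stressed-cell list rose in recovery mice, where 7.14% of all genes did.

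The 254 higher genes on no list were set beside the other mice. Of the 346 higher genes, 321 could be tested in the 34 mice, 223 of them rose with the score (69.5%, against 2.37% of all genes) and none fell. For those on no list it was 134 of 229 (58.5%). In recovery mice it was 263 of 320 (82.2%, against 7.14%), and 174 of 228 on no list. The 37 lower genes gave no such match: of 33 tested in the 34 mice 0 were called, 18 had a negative slope, and in recovery mice 1 of 32 fell and 1 rose.

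**Figure D5:**
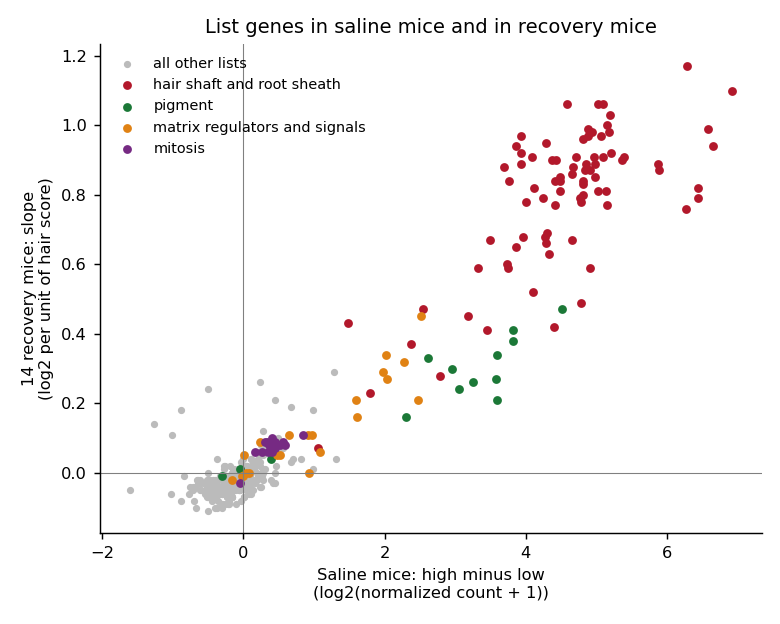
Difference between high-score and low-score saline mice (log2 scale) against the slope on the hair score in 14 recovery mice (log2 per unit of score) for the genes of all lists, coloured by list. Shaft and root sheath genes lie at the upper right, pigment genes, matrix regulators and signals between, and the mitosis genes near a slope of 0.08 with small differences in saline skin.

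Of the 8 largest rises on no list, 4 were predicted genes (Gm9507, Gm3233, Gm7138 and Gm3238) inside the KAP region of chr10, where 9 of 9 other genes above the filter were apart. Gm9507 (chr10:77810967-77811843) had 540, 426, 214 and 105 counts in the high-score mice, 70.7 and 26.5 in the middle, and 10.3, 34.3, 0 and 1.14 in the low-score mice, and a slope of 0.65 ± 0.06 in the 34 mice (adjusted p = 2.33e-09). All 4 lie within Tspear on the other strand, so without the strand setting their reads cannot be told apart from those of Tspear. 1110025L11Rik lies in the KAP region of chr16 and had 3511, 1581, 1090 and 913 counts against 687, 216, 0 and 18.3. Gm4553, next to the KAP region of chr7, differed by 5.02 ± 1.00. Crisp1, a secreted protein rich in cysteine that is best known from the epididymis, had 299, 172, 120 and 94.8 counts, 13.7 and 0 in the middle, and 1.15, 24.0, 0 and 3.43, and rose in the 34 mice (0.55 ± 0.07, adjusted p = 2.72e-06).

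The largest rise on no list did not pass the test in other mice. 2210418O10Rik (chr2:176226569-176240328) had 73.9, 60.1, 77.3 and 62.8 counts in the high-score mice, 119 and 0 in mice 4 and 5, and 0, 0, 1.21 and 0 in the low-score mice. Saline mice were thus either at 60.1 or more or near 0. Of the 34 other mice, 14 were below 2 counts, 18 at 17 or more and 2 between. This upper cut is lower than the 60.1 counts of the saline mice. The slope by limma was -0.09 ± 0.17 (adjusted p = 0.86).

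Most of the 8 largest falls were at low counts, and Pyy and AA467197 reached the highest. Ang2, an angiogenin-type ribonuclease, had 0, 1.88, 2.58 and 0 counts in the high-score mice and 9.17, 5.72, 23.0 and 9.14 in the low-score mice, and was below the filter in the other mice. Pyy, a peptide hormone, had 9.54, 6.57, 11.6 and 21.3 counts against 29.8, 21.7, 142 and 86.8, and its slope in the 34 mice was 0.04 ± 0.07 (adjusted p = 0.834). AA467197 had 7.15 to 36.1 against 36.6 to 219 counts (slope -0.01, adjusted p = 0.884). Cbx3-ps6, Msx3, Gm6969, Gm15429 and Scgb1b27 stayed at or below 14.9 counts in every saline mouse, and none of those tested in the 34 mice passed.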

How the data were processed

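RNA of back skin (TruSeq stranded mRNA libraries, paired-end Illumina reads) was measured in 44 mice. The authors aligned reads with STAR 2.4.0 to mm10 and divided counts per gene by a size factor of DESeq2 1.12.3, and deposited that signal (normalized counts per gene and mouse). How reads were counted, with which strand setting and annotation, is not given in the sources used here. In the mouse with the lowest share, 100.0% of values above 0 were whole multiples of 1 read (tolerance 0.01), so whole reads were recovered. Positions are of GRCm38, and 98.9% of 43411 gene identifiers had a symbol.

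Groups follow the labels. Mice, gene lists and tests were chosen with earlier results of these data known. In saline mice, log2(normalized count + 1) was compared without a test. In the 34 others, limma 3.58.1 in R 4.3.3 with a mean-variance trend gave the slope on the score with group as a term, for genes with a mean above 3, adjusted by Benjamini-Hochberg and called below 0.05. The fit was tested on simulated data. Named genes are up to 4 per list with the highest saline mean, 14 follicle genes chosen by name, and the 8 largest rises and 8 largest falls on no list. Other list members are named where a count is small or they are exceptions, after their values were seen. The SD is the spread between mice, and the SE is that of a difference of means or of a slope. For the saline sets, which were chosen by rank, the SE is a description only. Depth was 8509094 to 15285577 reads per mouse. Alternatives were other pseudocounts, filters and scalings, edgeR 4.0.16 and DESeq2 1.42.0 on recovered reads, other set sizes and scores, parts of the mice and the replicate number as a block. Python 3.11.15 with numpy 2.4.6, pandas 2.3.3 and matplotlib 3.10.9 was used. Krt36, Krt85, Tchh, Mki67, Ryr1 and Ly6g were not analysed here.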

Additional observations from a re-analysis of the deposited data

Results flagged for a closer look

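In 190 groups and values examined, chance alone would set a mouse apart in about 1 of 20. Saline mouse 1, the mouse with the highest hair score, lay below the others in the mean log2 level of sebaceous gland (9.48), fat cell (10.37), blood vessel (7.37), lymphatic (7.12), MHC class II (10.54) and clock genes (7.77), and in log2 level of Fgf18 (4.33) and Adipoq (10.05). It lay above them in Top2a (11.21). Saline mouse 2, with the lowest hair score, lay below the others in rest phase signals (6.69) and in Bmp4 (7.59). In hair score, mouse 8 of the 2-week bleomycin group (7.91) lay above its group and mouse 5 of the 6-week recovery group (2.73) below its group.

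By the limma test of the difference, the slope on the hair score differed between recovery and bleomycin mice for 110 genes (107 steeper in recovery). Among them were Foxn1 (difference 0.21, adjusted p = 0.0277), Msx2 (0.29, adjusted p = 0.0194) and Fgf5 (0.54, adjusted p = 0.00923). Most mice under bleomycin had low scores (medians 1.86 and 2.80 at 2 and 4 weeks), where the 4 keratins had few counts. Slopes under bleomycin thus rest on few mice, and the share of this in the difference was not tested.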

How the results depend on the processing

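The number of genes apart in saline skin was 383 and lay between 264 and 462 under another pseudocount, filters, scalings, a ranking by shaft keratins (445, with mouse 5 in the low set in place of mouse 8) and a ranking without mouse 1 (264). It was 658 with 3 against 3 mice, 204 with 5 against 5 and 627 with a difference of at least 1.5-fold, and 375 to 560 with 1 of the 8 mice left out. The number moving with the score in the 34 mice was 438. It was 2038 in recovery mice, 58 in mice under bleomycin, 852 with a score from shaft keratins, 61, 127 and 1113 with the 4-week, 6-week recovery and 10-week recovery groups alone, and 0 in the 2-week group by limma (252 at an unadjusted p below 0.05), and edgeR and DESeq2 called 507 and 655 in all 34. Leaving out 1 mouse gave 223 to 739: 223 without mouse 4 and 266 without mouse 7 of 10-week recovery, 257 without mouse 4 of 6-week recovery and 739 without mouse 3 of 4 weeks of bleomycin. The replicate number as a block gave 234, and same-numbered mice, which are different animals, had a median correlation of 0 over 44 pairs, so the numbers do not pair them. The slope of Foxn1 reversed to -0.00 in bleomycin mice and -0.02 in the 4-week group, where those of Cux1 (-0.01) and Lrrc15 (-0.06) did too. The cause was not tested. With 0.1 as pseudocount the difference of 2210418O10Rik was 8.49, and without mouse 1 in the ranking that of Foxn1 was 1.06. For named genes, 8 saline differences counted as moved under other settings and 386 as the same. Slopes of named genes counted as weaker 28 times (14 genes) and as the same 335 times. With 1 group alone it was 59 (32 genes) and 61, and with 1 mouse left out 32 (7 genes) and 1124. Values below about 10 counts are limited by depth.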
